A study of Mus musculus with 6 samples.

Results

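Transcripts of 10 genes that build and join meiotic chromosomes were measured by poly(A) RNA sequencing of cultured mouse keratinocytes: Sycp1, Sycp2, Sycp3, Syce1 and Hormad1 of the synaptonemal complex and chromosome axis, Stag3, Smc1b and Rec8 of meiotic cohesin, and Dmc1 and Spo11 of recombination. They were chosen by name, with earlier results of these data known. All 10 were present among the 43629 genes of the count table, where 6 of the 10 passed the filter on low counts and entered the test. The study deposited 6 libraries in 2 groups of 3. Dnmt1Δ/Δep mice carried a floxed Dnmt1 gene on both alleles and a Cre driven by the Keratin 5 promoter, which deletes Dnmt1 in keratinocytes and any other cell in which this promoter is active, and controls carried floxed Dnmt1 on 1 or both alleles without the Cre. Both groups were labelled female and shared a mixed C57BL/6J and 129SV background, the age of postnatal day 3 at isolation and 5 days in culture, so that the values describe cultured cells and not the epidermis in place. The culture time follows the labels, and a legend of the study gives a shorter one. Dnmt1 encodes the maintenance DNA methyltransferase.

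In meiosis, each pair of sister chromatids is folded into loops along a protein axis. Meiotic cohesins, in which REC8, SMC1β and STAG3 take the place of the mitotic subunits, hold the sister chromatids together, HORMAD1 and the SYCP2 and SYCP3 filaments form the axis, and SYCP1 with SYCE1 zips the homologous axes into the synaptonemal complex. SPO11 cuts the DNA and DMC1 pairs the broken ends with the homologous chromosome. In somatic cells these genes are normally silent or nearly so, and several have CpG-rich promoters that are methylated.

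The promoters of Hormad1 and Syce1, 2 of the genes with the largest changes, are shown with those of Sycp1, whose control libraries were empty, and Smc1b, which did not pass the test, because CpG dinucleotides are the substrate of DNMT1. The sequences are the 250 bases before the RefSeq start on GRCm38.p6, read 5′ to 3′ on the strand of the gene. Capitals mark matches on either strand to TCCCGC, the core that E2F factors recognise (GCGGGA on the other strand), and to CACGTG, the E-box read by MAX dimers. The letters of these motifs do not overlap each other here. Hormad1 lay at chr3:95559427-95559676 on the plus strand, Syce1 at chr7:140787855-140788104, Sycp1 at chr3:102936101-102936350 and Smc1b at chr15:85131958-85132207, the last 3 on the minus strand.
Hormad1: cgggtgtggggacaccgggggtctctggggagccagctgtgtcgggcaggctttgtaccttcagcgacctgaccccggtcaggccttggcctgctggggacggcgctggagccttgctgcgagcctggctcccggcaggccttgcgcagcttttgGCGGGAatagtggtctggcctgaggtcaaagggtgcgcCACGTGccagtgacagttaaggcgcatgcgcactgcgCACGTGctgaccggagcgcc
Syce1: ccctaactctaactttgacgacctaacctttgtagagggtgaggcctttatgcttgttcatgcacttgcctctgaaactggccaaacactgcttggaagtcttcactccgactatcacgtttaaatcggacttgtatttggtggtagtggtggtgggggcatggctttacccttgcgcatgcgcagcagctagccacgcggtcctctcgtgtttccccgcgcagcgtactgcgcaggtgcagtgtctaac
Sycp1: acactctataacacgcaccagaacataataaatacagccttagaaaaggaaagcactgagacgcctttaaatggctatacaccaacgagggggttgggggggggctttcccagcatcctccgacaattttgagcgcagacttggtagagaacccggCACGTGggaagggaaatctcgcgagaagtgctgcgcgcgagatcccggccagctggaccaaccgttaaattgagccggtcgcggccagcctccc
Smc1b: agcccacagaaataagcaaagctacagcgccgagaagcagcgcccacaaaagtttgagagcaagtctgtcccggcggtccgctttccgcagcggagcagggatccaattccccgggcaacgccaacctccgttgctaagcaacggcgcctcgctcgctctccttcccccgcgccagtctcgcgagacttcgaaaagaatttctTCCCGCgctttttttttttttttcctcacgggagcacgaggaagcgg

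A RefSeq promoter was matched for 9 of the 10 genes (Spo11 was the exception). Counted over these 250 bases, Stag3 held 26 CpG dinucleotides, Smc1b 25, Hormad1 19, Sycp1 17 and Syce1 13. Sycp3 and Dmc1 each held 12, Rec8 10 and Sycp2 7. The median was 13, against 10 over 17491 protein-coding genes, 12 over 28 other meiotic genes and 20 over 19 mitotic cohesin and recombination genes. The highest counts, those of Stag3 and Smc1b, exceeded 88.4% and 87% of protein-coding promoters, and the lowest, that of Sycp2, exceeded 41.3%. TCCCGC occurred in 5 of the 9 promoters (55.6%: Sycp3, Hormad1, Smc1b, Rec8 and Dmc1), against 21.6% of protein-coding promoters, 39.3% of 28 promoters of other meiotic genes and 36.8% of the 19 mitotic ones. CACGTG occurred in 4 (44.4%: Sycp1, Sycp3, Hormad1 and Stag3), against 6.64%, 14.3% and 10.5% in the same sets. Hormad1 and Sycp3 held both, as did 1.97% of protein-coding promoters, 3.57% of the other meiotic ones and 0% of the mitotic ones. In Hormad1, TCCCGC began 95 bases before the start and CACGTG 57 and 20 bases before it. These are matches of letters in a chosen list and no binding was measured. For Stag3 and Rec8, other annotated transcripts begin further upstream, so that 250 and 129 bases of their windows are also annotated as exon.

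**Figure D1:**
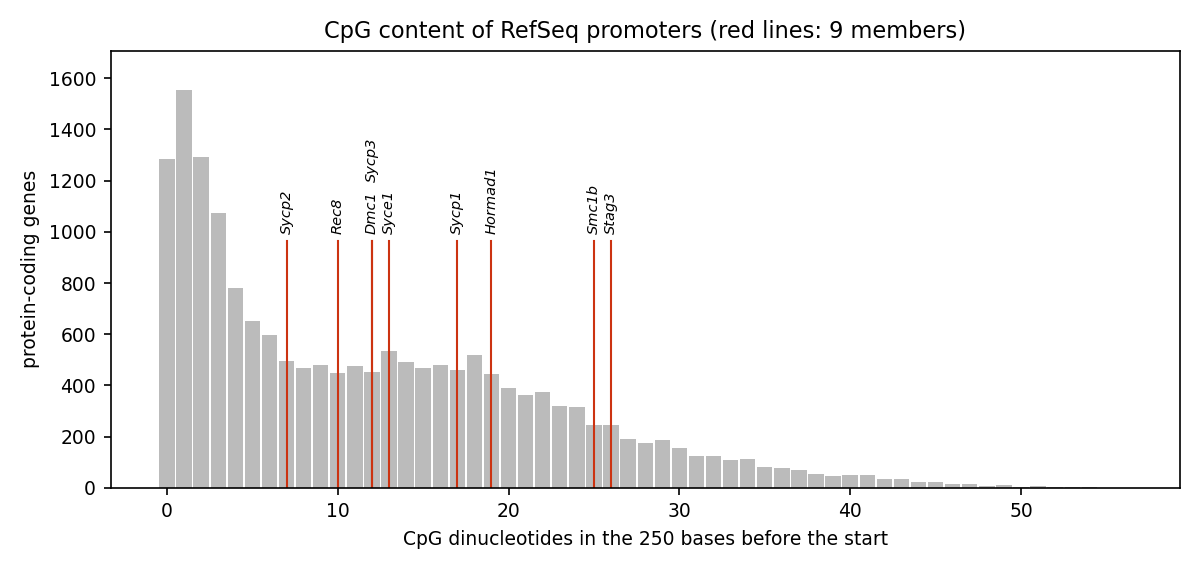
Number of protein-coding genes (grey bars) by the count of CpG dinucleotides in the 250 bases before the RefSeq start, with red lines at the 9 matched genes. The genes span 7 CpG dinucleotides in Sycp2 to 26 in Stag3, and the most frequent counts among all protein-coding genes lie below all 9.

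Library depth ranged from 53433121 reads in genes (control replicate 3) to 115526598 (Dnmt1Δ/Δep replicate 3), at which 3 reads correspond to between 0.0254 and 0.0558 CPM (the count scaled to the size of its library). Dnmt1 stood at 394, 379 and 324 CPM in control replicates 1 to 3 and at 49.7, 54.3 and 50.7 CPM in Dnmt1Δ/Δep (log2 fold change -2.83, SE 0.11, edgeR quasi-likelihood adjusted p = 8.1e-05), so that 14.1% of the control level was left. Summed keratinocyte markers (Krt5, Krt14, Trp63, Itga6, Krt1 and Krt10) reached 2.7e+04 to 3.04e+04 CPM in control and 1.95e+04 to 2.02e+04 CPM in Dnmt1Δ/Δep, most of it from the basal keratins Krt5 and Krt14. These were lower in Dnmt1Δ/Δep by the adjusted p alone (-0.50 and -0.61 on the log2 scale, edgeR adjusted p = 0.038 and 0.028). The differentiation keratins Krt1 and Krt10 were at -2.30 and -1.58 and were not called by edgeR (adjusted p = 0.085 and 0.069) but were by DESeq2 (adjusted p = 0.036 and 0.0013). Both overlapped between the groups, and the controls differed widely (53.2, 356 and 530 CPM for Krt1, 9.63, 32.1 and 29.7 CPM for Krt10). Control replicate 1 lay near the Dnmt1Δ/Δep libraries (59.2 to 66.1 and 6.3 to 10.6 CPM). The part of these differences in the meiotic genes was not tested. Control and Dnmt1Δ/Δep libraries of the same replicate number shared a sequencing lane. The design text names 3 mice a group, and the p-values measure the spread between these libraries.

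Stag3, Syce1 and Hormad1 were upregulated in Dnmt1Δ/Δep keratinocytes, and none of the 10 genes was downregulated. Among the 6 tested genes, 3 were called up (adjusted p no higher than 0.05 with a log2 fold change of 1 or more), against 6.03% of all 16829 tested genes called up and 0.392% called down. Of the tested genes with a control mean under 0.5 CPM, 16.1% were called up, and 2 of the 5 tested meiotic genes of the 10 in that range were (this background was added after seeing the data). The median log2 fold change was 2.27 over the 6 tested genes and -0.00 over all tested genes. Syce1 and Hormad1, with 1 control read each, passed the filter only through their Dnmt1Δ/Δep libraries, so that this count and this median describe the genes and carry no support of their own. In 5 of the 10 genes every Dnmt1Δ/Δep library lay above every control library, and in 0 did all lie below; the corresponding shares over genes with any count were 14.3% and 7.83%. Within replicate numbers, 7 of the 9 genes with more than 3 reads in all were higher in Dnmt1Δ/Δep in all 3 pairs (all but Dmc1 and Spo11), against 28.1% of genes at that count, a background also added after seeing the data. Sycp1, with 0 control reads, and Syce1 and Hormad1 reached more than 3 reads only through Dnmt1Δ/Δep. The 10 genes were also chosen with earlier results of these data known. These shares therefore describe the genes too and carry no support of their own. DESeq2 also called 3 of the 10 genes up (background 7.63% up and 0.689% down), as did edgeR once the replicate number entered as a block (6.97% up and 0.565% down).

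**Figure D2:**
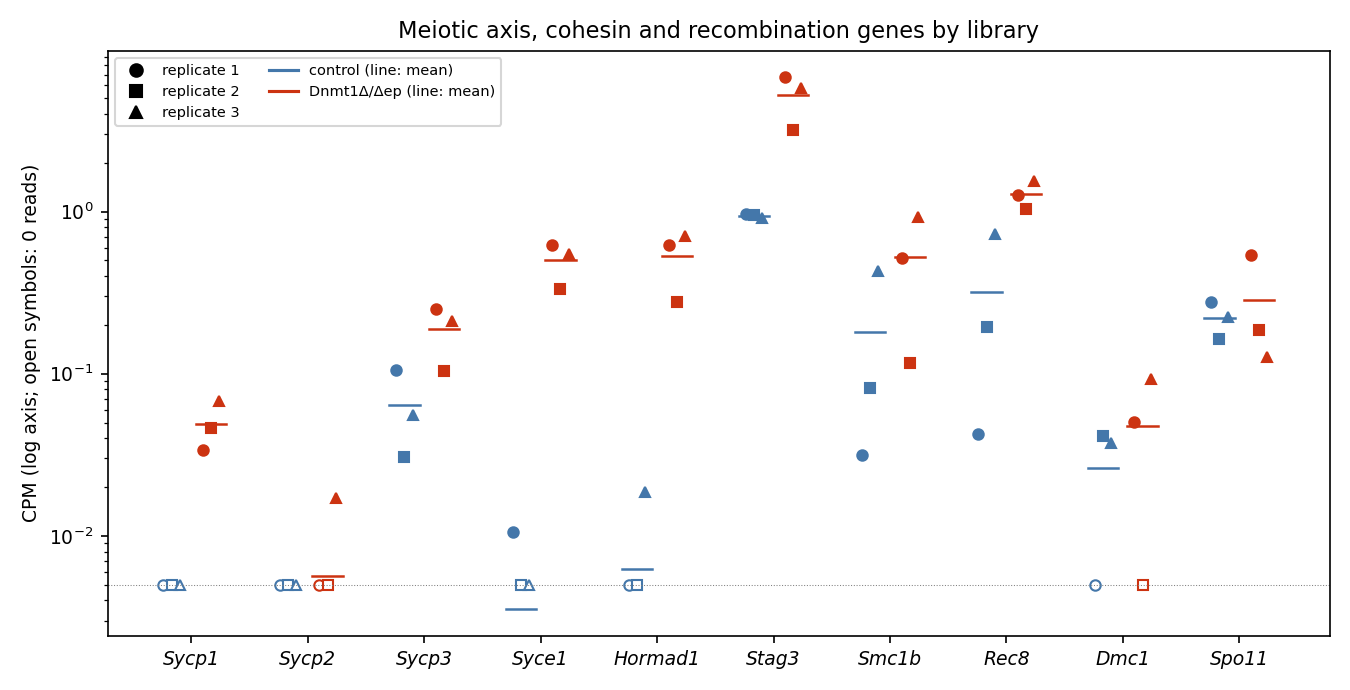
CPM of the 10 genes in each library on a log axis, control in blue and Dnmt1Δ/Δep in red, with 1 symbol per replicate, lines at the group means and open symbols at 0 reads (drawn on the dotted line). The 2 groups do not overlap for Stag3, Syce1, Hormad1, Rec8 and Sycp1.

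Among the synaptonemal complex and axis genes, Syce1, whose product lies in the central element of the complex, had 1, 0 and 0 control reads but 37, 29 and 65 in Dnmt1Δ/Δep, or 0.0106, 0 and 0 CPM against 0.621, 0.335 and 0.551 CPM. All 3 Dnmt1Δ/Δep libraries lay far above the controls. The fitted log2 fold change was 6.51 (SE 0.75, edgeR adjusted p = 0.0028). Because a single control read stands behind the comparison, the fitted fold rests on the prior count of the model. The ratio of summed reads per library size was 122 with a 95% counting interval from 21.5 to 4.85e+03. The intervals cover counting error only.

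Hormad1, which marks chromosome axes that have not paired, gave 0, 0 and 1 reads in control and 37, 24 and 83 in Dnmt1Δ/Δep, or 0, 0 and 0.0186 CPM against 0.621, 0.278 and 0.703 CPM. The groups did not overlap, and Dnmt1Δ/Δep replicate 2 was the lowest of its group. The log2 fold change was 6.56 (SE 0.90, edgeR adjusted p = 0.0058), and the ratio of summed reads was 134 (95% counting interval 23.7 to 5.33e+03). Hormad1 lies at chr3:95559677-95587671 and Syce1 at chr7:140777229-140787852 of GRCm38, and no other gene shares their exons.

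Sycp1, the transverse filament of the complex, had 0 reads in all 3 control libraries and 2, 4 and 8 reads in Dnmt1Δ/Δep, or 0.0336, 0.0463 and 0.0678 CPM. With the control group at the floor of 3 reads over the group, this was at least 4.34-fold higher, but the counts were too low for the filter, and without the filter its edgeR adjusted p was 0.09. Sycp2, a component of the lateral element, gave 0 reads in 5 libraries and 2 in Dnmt1Δ/Δep replicate 3, which lies under the floor. Sycp3, the other lateral element protein, gave 10, 3 and 3 reads in control and 15, 9 and 25 in Dnmt1Δ/Δep, where the groups overlapped although each pair of the same replicate number differed upward (1.23, 1.61 and 1.73 on the log2 scale). Its ratio was 2.85 (95% counting interval 1.59 to 5.37) and its edgeR adjusted p without the filter was 0.26. Exons of Chpt1 on the opposite strand cover 52.2% of the exon sequence of Sycp3, and the strand setting of the counting was not given in the sources used here, so that reads of the shared sequence cannot be told apart. Per length, the mean levels in Dnmt1Δ/Δep thus ran from 0.344 RPKM (CPM per kilobase of exon sequence) for Syce1 to 0.000947 RPKM for Sycp2, genes of the same structure.

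Among the meiotic cohesin genes, Stag3 carried most of the signal. Its 91, 93 and 49 control reads (0.962, 0.954 and 0.912 CPM) rose to 401, 274 and 686 reads in Dnmt1Δ/Δep (6.73, 3.17 and 5.81 CPM). The control libraries differed by little, and Dnmt1Δ/Δep replicate 2 was the lowest of its group and still above all of them. The log2 fold change was 2.47 (SE 0.31, edgeR adjusted p = 0.0039), with differences of 2.80, 1.73 and 2.66 within replicate numbers 1 to 3. Stag3, at chr5:138280240-138312393, had the highest control mean of the 10 genes per length, 0.164 ± 0.00469 RPKM (SD, n = 3), although the range of Rec8 overlapped it.

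Rec8, the kleisin that closes the meiotic cohesin ring, had 4, 19 and 39 control reads and 76, 89 and 182 reads in Dnmt1Δ/Δep, or 0.0423, 0.195 and 0.726 CPM against 1.27, 1.03 and 1.54 CPM. Every Dnmt1Δ/Δep library lay above every control library, but the controls spread widely and control replicate 3 came closest to the mutants. The log2 fold change of 2.08 (SE 0.80) did not pass the test (edgeR adjusted p = 0.17). It was called in 1 of 11 alternatives, without control replicate 3 (3.41, edgeR adjusted p = 0.028), and ranged from 1.53 (without control replicate 1) to 3.41 over them, with adjusted p up to 0.4, and the differences within replicate numbers were 4.75, 2.37 and 1.07.

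Smc1b, the meiotic form of the cohesin core, had 3, 8 and 23 control reads and 31, 10 and 110 reads in Dnmt1Δ/Δep, or 0.0317, 0.0821 and 0.428 CPM against 0.52, 0.116 and 0.932 CPM. The groups overlapped, since control replicate 3 lay above Dnmt1Δ/Δep replicate 2, while all 3 differences within replicate numbers were upward, from 0.48 to 3.84 on the log2 scale. The log2 fold change of 1.66 (SE 1.01) was not called (edgeR adjusted p = 0.39), and it ranged from 0.89 to 3.17 over 11 alternatives without a call.

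The same 2 libraries stood at the ends of their groups for other cohesin genes. Nipbl, which loads cohesin, stood at 74.9, 82.3 and 217 CPM in control and 113, 54.9 and 170 CPM in Dnmt1Δ/Δep. Among 16 mitotic cohesin genes, 8 were highest among controls in replicate 3 and lowest among Dnmt1Δ/Δep in replicate 2, against 13.3% of all tested genes. Over all 30 mitotic cohesin and recombination genes it was 10, and 3 of the 10 meiotic genes (Rec8, Smc1b and Hormad1) had this order too, of which Hormad1 was 1 of the 9 called meiotic genes. Dnmt1Δ/Δep replicate 2 was the lowest of its group in 7 of the 10 genes and in 7 of the 9 called meiotic genes, against 32% of all tested genes. The part of these libraries in the values of Rec8 and Smc1b was not tested.

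Neither recombination gene was called. Spo11, the catalytic subunit of the break-forming complex, had 26, 16 and 12 control reads and 32, 16 and 15 reads in Dnmt1Δ/Δep, or 0.275, 0.164 and 0.223 CPM against 0.537, 0.185 and 0.127 CPM. Its log2 fold change was 0.31 (SE 0.60, edgeR adjusted p = 0.84) and turned to -0.51 without Dnmt1Δ/Δep replicate 1. Dmc1, the meiotic strand-exchange protein, gave 0, 4 and 2 control reads and 3, 0 and 11 in Dnmt1Δ/Δep, where the ratio of 2.17 had a counting interval from 0.784 to 6.89.

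Summed over the 10 genes, 135, 143 and 129 control reads compared with 634, 455 and 1187 in Dnmt1Δ/Δep, or 1.43, 1.47 and 2.4 CPM against 10.6, 5.26 and 10.1 CPM. Stag3 supplied 38% to 67.4% of the control sum and 57.8% to 63.2% of the Dnmt1Δ/Δep sum. The number of genes with more than 3 reads was 4, 5 and 4 in control and 7, 8 and 9 in Dnmt1Δ/Δep. Compared per length, the order in Dnmt1Δ/Δep was Stag3 (0.913 RPKM), Rec8 (0.437), Syce1 (0.344), Hormad1 (0.309), Sycp3 (0.15), Smc1b (0.129), Spo11 (0.0722), Dmc1 (0.0197), Sycp1 (0.0138) and Sycp2 (0.000947). Between neighbours in this order, only Stag3 against Rec8 and Sycp1 against Sycp2 had ranges over 3 libraries that did not overlap. Further apart, Rec8 (0.351 to 0.526 RPKM) and Syce1 (0.23 to 0.425 RPKM) lay wholly above Sycp3 (at most 0.199 RPKM). No member reached a group mean of 1 RPKM, although Stag3 passed it in Dnmt1Δ/Δep replicates 1 and 3 (1.17 and 1.01 RPKM), so that a filter at a mean of 1 RPKM leaves none of the 10 to test.

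The meiotic subunits were set against their somatic relatives within each library, and they made up a small share of each pair in both groups. Of the RPKM that Stag3 and Stag2 have together, Stag3 made up 0.882 ± 0.315% in control and 4.87 ± 0.575% in Dnmt1Δ/Δep (SD, n = 3), and against Stag1 it made up 1.55 ± 0.156% and 8.01 ± 2.13%. Rec8 was at 0.131 ± 0.144% and 0.673 ± 0.132% of its pair with Rad21, and Smc1b was at 0.159 ± 0.189% and 0.46 ± 0.343% of its pair with Smc1a. On the log2 scale of read ratios the difference was 2.58 for Stag3 with Stag2 and 2.43 with Stag1, 3.03 for Rec8 with Rad21 and 1.86 for Smc1b with Smc1a. Exact two-sided permutation p-values were 0.1, 0.1, 0.1 and 0.2 (Benjamini-Hochberg adjusted over these 4 pairs 0.133, 0.133, 0.133 and 0.2), where 0.1 is the smallest that 3 against 3 libraries can give.

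**Figure D3:**
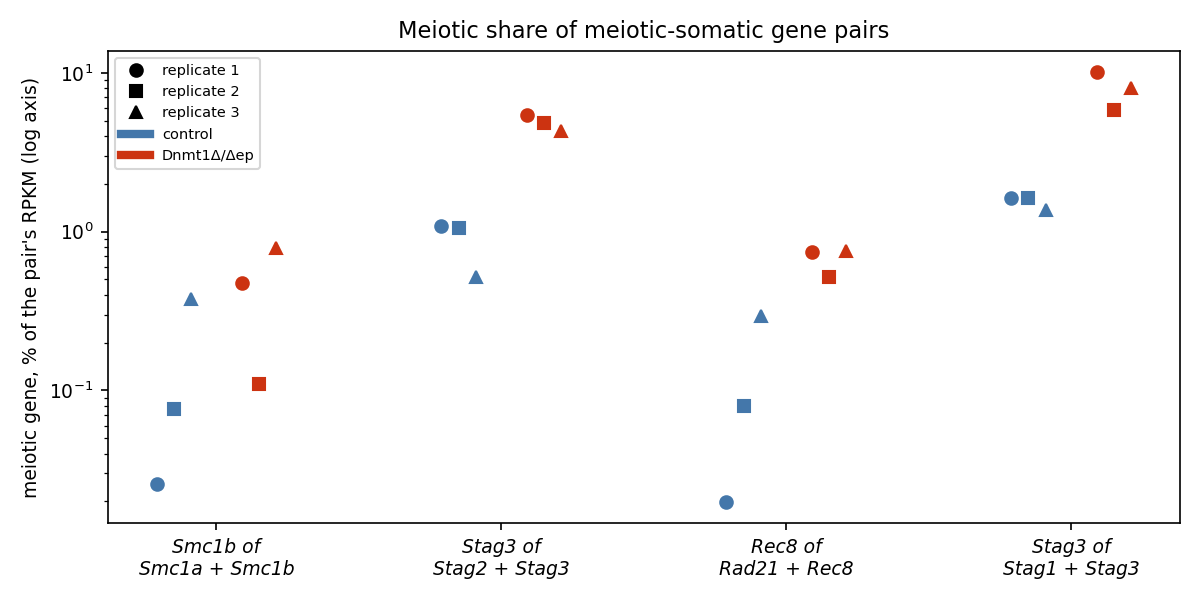
Share of each meiotic gene in the summed RPKM of its pair with a somatic relative, in percent on a log axis, with 1 symbol per library (control blue, Dnmt1Δ/Δep red). The Stag3 share lies between 4.29% and 5.44% of its pair with Stag2 in Dnmt1Δ/Δep and between 0.518% and 1.08% in control.

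The mitotic cohesin and recombination genes were not called in either direction (0 of 30 called up or down by edgeR, 0 by DESeq2 and 0 at an unadjusted p under 0.05 with the same fold threshold). Smc1a, a core subunit, had a log2 fold change of -0.06 (SE 0.10, edgeR adjusted p = 0.81), Rad21, the mitotic kleisin, -0.30 (SE 0.11, adjusted p = 0.15), and the STAG subunits Stag1 and Stag2 -0.03 and -0.20 (adjusted p 0.94 and 0.82). Of the 30 genes, 28 had a negative log2 fold change, with a median of -0.21, and in 13 every Dnmt1Δ/Δep library lay below every control library, against 7.83% of genes with any count. That background was not matched for level, and 29 of the 30 had a control mean of at least 1 RPKM. Without the fold threshold, 4 passed the adjusted p alone, among them the sister cohesion genes Cdca5 (-0.49, edgeR adjusted p = 0.026) and Sgo1 (-0.44, adjusted p = 0.024). The background of genes that passed downward by adjusted p alone was 1.66%.

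Other genes of meiosis were counted from a list of 41. Of these, 39 were in the table and 26 were tested, and 6 were called up and 0 down by edgeR (0 down also at an unadjusted p under 0.05, and 8 up and 0 down by DESeq2), with a median log2 fold change of 0.58. The background was 6.03% of all tested genes called up, and 16.1% of those with a control mean under 0.5 CPM, a range that held 12 of the 26 genes and all 6 that were called. None of the 6 had more than 9 reads in any control library, and they passed the filter through their Dnmt1Δ/Δep libraries, so that the count and the median are descriptions here too. The group spanned entry into meiosis, the synaptonemal complex and crossover formation. Stra8, the gatekeeper of meiotic entry, had 0 reads in all controls and 29, 15 and 47 in Dnmt1Δ/Δep, at least 28.2-fold higher (edgeR adjusted p = 0.013). Dazl, an RNA-binding protein of germ cells, had 3, 0 and 0 control reads and 117, 69 and 294 reads in Dnmt1Δ/Δep, a ratio of 149 (95% counting interval 50.6 to 725, edgeR adjusted p = 0.004). Tex12, a central element protein like Syce1, had 0 control reads and 23, 21 and 24 in Dnmt1Δ/Δep, at least 21.1-fold higher (edgeR adjusted p = 0.011). Syce2, another central element gene and far more abundant, lay lower in every Dnmt1Δ/Δep library than in every control (group means of 21.8 CPM for control against 15.5 CPM) and was not called (-0.49, edgeR adjusted p = 0.056). In all, 12 of the 39 genes lay wholly above control and 4 wholly below (Syce2, Psmc3ip, Mlh3 and Hsf2bp), where 14.3% and 7.83% of genes with any count did, so that the share below is near the background.

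Genes of strand exchange and crossover formation held 3 of these 6. Shoc1 stood at 9, 0 and 3 control reads and 597, 676 and 1064 reads in Dnmt1Δ/Δep (log2 fold change 7.46, SE 0.64, edgeR adjusted p = 9.3e-04), and Ccnb1ip1 at 5, 2 and 1 reads and 222, 244 and 348 reads (6.55, SE 0.40, edgeR adjusted p = 3.1e-04). At 1.55 and 1.68 RPKM in Dnmt1Δ/Δep their mean levels exceeded those of all 10 genes. Exons of Rpph1 on the same strand share 12.4% of the Ccnb1ip1 exon sequence. Tex11, a crossover protein, passed with 0, 2 and 2 against 7, 15 and 28 reads (log2 fold change 3.31, edgeR adjusted p = 0.043). With the replicate number as a block, the germ cell gene Tex15 (log2 fold change 1.45, edgeR adjusted p = 0.15 without the block and 0.0082 with it) and Kash5, which ties telomeres to the nuclear envelope (1.74, adjusted p = 0.075 and 0.047), also passed, for 8 genes, and both passed with DESeq2 (adjusted p = 0.022 and 0.023). The genes of the list with the highest CPM among those not called, a scale that takes no account of length, were Sgo2a, Mlh3 and Ythdc2. Sgo2a, the shugoshin of meiotic cohesin, had a log2 fold change of -0.06 (SE 0.34, adjusted p = 0.95), the crossover repair gene Mlh3 at -0.24 (SE 0.09, adjusted p = 0.17) and Ythdc2, an RNA helicase of meiotic entry, at 0.21 (SE 0.25, adjusted p = 0.70). Exons of Kctd18 on the opposite strand cover 35% of the Sgo2a exon sequence, and with the strand setting unknown its reads may include those of Kctd18. Rnf212 had 0 reads in every library.

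**Figure D4:**
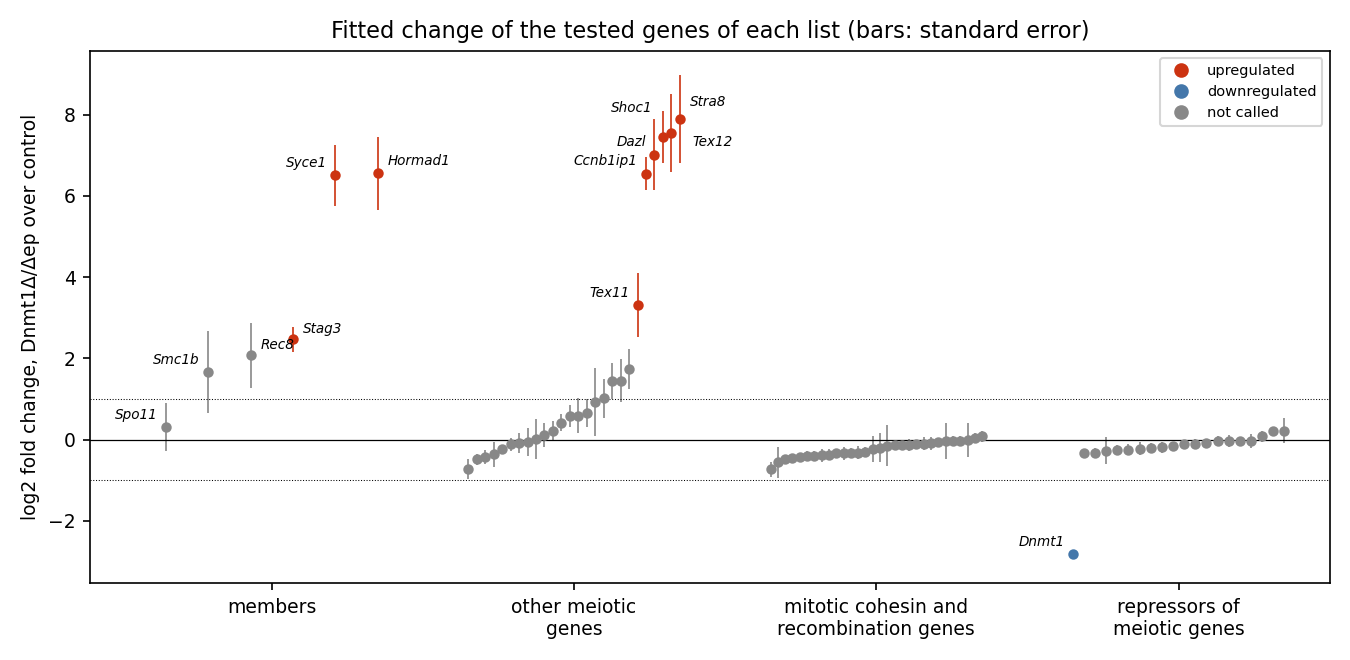
Fitted log2 fold change with its standard error for each tested gene of 4 lists, with dotted lines at 1 and -1. Among the members (the 10 genes), 3 lie in red above the upper line, as do 6 other meiotic genes, the mitotic relatives lie between the dotted lines, 28 of 30 of them below 0, and Dnmt1 is the only gene called down.

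Of 20 repressors of meiotic genes, none was called apart from Dnmt1 itself. In all, 17 of the 20 had a negative log2 fold change, with a median of -0.14. In 5, Dnmt1 included, every Dnmt1Δ/Δep library lay below every control library, and in 1 (Max) above, against 7.83% and 14.3% of genes with any count. The 20 genes encode members of the PRC1.6 complex, which includes E2F6 and the MAX partner MGA, and enzymes of histone H3 lysine 9 and DNA methylation. E2f6 stood at -0.11 (edgeR adjusted p = 0.69), Mga at 0.22 (adjusted p = 0.76), and Dnmt3a and Dnmt3b at -0.04 each (adjusted p 0.89 and 0.92). Of those not called, the genes with the highest mean CPM over the 6 libraries, Ehmt2, Hdac2 and Uhrf1, were at -0.19, -0.15 and -0.25 (adjusted p 0.45, 0.38 and 0.33).

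Marker genes of other cell types were present in both groups. The summed endothelial markers Pecam1 and Cdh5 stood at 1.56 to 3.21 CPM in control and 10.4 to 14.4 CPM in Dnmt1Δ/Δep, with both called up (1.89 and 4.11 on the log2 scale). Melanocyte markers (4 genes) reached 193 to 502 CPM in control and 618 to 829 CPM in Dnmt1Δ/Δep, with 0 called without the replicate block and 2 of the 4 with it (Dct, 1.02, edgeR adjusted p = 0.027, and Tyrp1, 1.14, adjusted p = 0.026). Of 4 leukocyte markers, Csf1r was called up (2.67, edgeR adjusted p = 0.027) but not with the replicate block (adjusted p = 0.053). Exons of Hmgxb3 on the opposite strand cover 15.1% of its exon sequence. Ptprc had 0, 0 and 2 control reads and 12, 1 and 0 in Dnmt1Δ/Δep. Lyz2 had 1, 0 and 1 against 6, 0 and 2. Both overlapped between the groups and were not tested, and Cd3e had 3 or fewer reads in every library. The leukocyte sum was 0.148 to 0.4 CPM in control and 0.821 to 2.73 CPM in Dnmt1Δ/Δep, most of it from Csf1r (0.137 to 0.39 and 0.786 to 2.42 CPM). Fibroblast markers (4 genes) were at 10.2 to 24.2 CPM in control and 10.9 to 52.7 CPM in Dnmt1Δ/Δep, where the groups overlapped and 0 were called. Dnmt1Δ/Δep replicate 2 was at 10.9 CPM and the others of its group at 48 CPM or more. Within Dnmt1Δ/Δep, replicate 2 was the lowest for Stag3, Syce1 and Hormad1. It also had the lowest fibroblast, leukocyte (0.821 CPM) and endothelial (10.4 CPM) sums of that group, but not the lowest melanocyte sum. This order held only within that group, since every control library had lower Stag3 and a control had the lowest fibroblast sum (10.2 CPM). The part of these cells in the meiotic genes was not tested, and fewer cells of a type and less RNA per cell cannot be told apart in bulk RNA.

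Of 12 germ cell markers, 6 had at most 3 reads in every library, which includes the protamine gene Prm2 and the transition protein gene Tnp1. Tdrd1, a piRNA pathway gene, was called up with 118, 149 and 90 control reads and 208, 404 and 516 reads in Dnmt1Δ/Δep (log2 fold change 1.50, edgeR adjusted p = 0.0071). Ddx4, a germ cell helicase, had 6, 4 and 0 control reads and 2, 9 and 21 in Dnmt1Δ/Δep and was not tested. The summed germ cell markers ran from 1.58 to 1.96 CPM in control and from 4.04 to 5.11 CPM in Dnmt1Δ/Δep, and Tdrd1 carried most of both sums (1.25 to 1.68 CPM and 3.49 to 4.67 CPM). The other 11 markers together gave 0.279 to 0.431 CPM in control and 0.439 to 0.585 CPM in Dnmt1Δ/Δep.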

How the data were processed

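Poly(A) RNA of 3 control and 3 Dnmt1Δ/Δep keratinocyte cultures was sequenced. The gene counts deposited by the authors were used as whole numbers. Per the labels and methods, the authors trimmed reads with cutadapt, removed ribosomal reads with Bowtie2, aligned with STAR and counted with HTSeq. The labels name GRCm38, while the methods text names GRCh38 for the index, and the strand setting of counting was not given in the sources used here. The 5 entries naming no gene (8.73% to 12.9% of reads) were left out. Symbols and exon lengths came from GENCODE vM21 for 42462 of 43629 genes (97.3%). The deposited tables of the authors' comparisons, with fold changes and p-values, and the table of repeats were not used.

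CPM used TMM library sizes, and RPKM divided them by exon length. The quasi-likelihood test of edgeR 4.0.16 (R 4.3.3) ran on 16829 genes kept by filterByExpr (minimum count 10, minimum total 15), with group as the only term and Benjamini-Hochberg adjustment over all of them. DESeq2 1.42.0 was an alternative. On simulated counts for 16482 genes, edgeR recovered 83 of 100 genes changed by a log2 fold of 2 and 92 of 100 changed by 3, with 11 false of 186 calls. DESeq2 recovered 85 and 94 there, with 34 false of 213 calls. The changed genes were drawn at random from all tested genes and libraries of a lane were simulated independently, so these rates are not those of genes as low as the members. Ratios of summed counts carry exact 95% intervals, and the ratio to a group with 0 reads used a floor of 3 counts over the group. Pair ratios added 0.5 to each count and were tested by an exact permutation. Deviations from the group means correlated at 0.43, 0.28 and 0.30 for libraries of the same replicate number, which share a lane per the file headers. Across different numbers the correlations ran from -0.34 to 0.10. With 3 libraries a group such deviations depend on each other, so that a pairing by number is not established. The test as reported did not use it.

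The members and the gene lists were chosen with earlier results of these data known. Named were all 10 members, their counterparts, the called genes of each list (up to 8) and up to 3 abundant genes not called, and Dnmt1. Other genes with values were chosen after their values were seen. Lists were counted, with no test of a set. The pair ratio planned for 1 recombination gene is not reported here. Alternatives were other normalizations, filters and thresholds, DESeq2, the replicate block and leaving out each library.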

Additional observations from a re-analysis of the deposited data

How the results depend on the processing

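Syce1, Hormad1 and Stag3 were called in 11 of 11 alternatives in which they were tested, with log2 fold changes of 5.95 to 8.38, 5.97 to 8.61 and 2.25 to 2.68. A mean RPKM of at least 1 left 395 genes called up (1014 in the test as reported), 35 down (66), 0 of the 10 members and 2 other meiotic genes, because fewer genes were tested. Genes called down numbered 107 without a filter, 116 with DESeq2 and 279 by adjusted p alone, by which 4 mitotic counterpart genes also passed downward. Leaving out 1 library gave 559 to 1183 genes up, 15 to 180 down, 3 to 4 members and 4 to 7 other meiotic genes. The fewest genes up were left without control replicate 2 (559), and leaving out Dnmt1Δ/Δep replicate 1 gave 591 genes up and 4 other meiotic genes. Spo11 ranged from -0.51 (without Dnmt1Δ/Δep replicate 1) to 0.68. Rec8 ranged from 1.53 to 3.41 and passed at 3.41 without control replicate 3 alone. The causes were not tested. With the replicate block, 1173 genes were up and 95 down and 3 members were called, Csf1r missed the threshold (adjusted p = 0.053), 2 of 4 melanocyte markers passed it, and no call of a named meiotic gene changed beyond Tex15 and Kash5. Leaving out 1 library moved the log2 ratio of Rec8 and Rad21 to between 2.10 and 3.96 (without control replicates 1 and 3), of Smc1b and Smc1a to between 1.01 and 2.85 (the same libraries) and of Stag3 and Stag2 to between 2.24 and 2.77. Pair ratios are the same with the block by construction (2.58 for Stag3 and Stag2, 3.03 for Rec8 and Rad21 and 1.86 for Smc1b and Smc1a). The median log2 fold change of all tested genes was -0.03 with RLE and 0.01 with upper-quartile factors. At this depth Sycp1, Sycp2, Sycp3 and Dmc1 had too few reads for the filter.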
